A study of Homo sapiens with 72 samples.

Results

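The 10 genes described here are 6 regulators of G protein signalling (RGS1, RGS2, RGS13, RGS16, RGS18 and RGS19), 3 G protein-coupled receptors of B cells (ADORA2A, GPR183 and P2RY8) and GNA13, which encodes a G alpha subunit. They were listed by name with earlier results of these data known, among 20018 protein-coding genes of the annotation, and every one of them is accounted for. Histone marks were measured by Cut&Tag, in which an antibody guides a transposase that cuts and tags the DNA beside the marked nucleosome. The cells were 3 lines of the B lineage, the Burkitt's lymphoma line Raji and the acute lymphocytic leukemia lines NALM6 and REH. Each was left untreated or kept overnight in 1 nM bryostatin (as the labels give it), a natural product that modulates protein kinase C, and H3K4me2, H3K4me3 and H3K27me3 were each profiled in 3 replicates of every group, 54 libraries in all. The study's text gives a full day for the treatment. Each line is a single established line, and nothing in the labels says that replicates were separate cultures, so that p-values measure only the spread between these libraries.

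A receptor that binds its ligand loads a G alpha subunit with GTP, and an RGS protein speeds the hydrolysis of that GTP and so ends the signal. In B cells this balance sets the response to chemokines and to the oxysterol, adenosine and lipid cues that place the cells within lymphoid follicles. P2RY8 signals through the subunit encoded by GNA13, a route that keeps germinal centre B cells in place and that is often mutated in lymphomas. H3K4me3 marks the starts of active genes, H3K4me2 marks starts and enhancers, and H3K27me3 marks genes held silent by Polycomb.

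The authors deposited SEACR peaks for each library, with the summed coverage of each peak, in hg38 coordinates. A gene's level is that sum within 1 kb of its annotated starts, or over its body with 20 kb on either side, divided by the library's median over reference genes that had a start peak of that mark in all 18 libraries. A level of 1 is thus that of a typical always-marked start, and a level of 0 means only that no peak was called. The smallest level a library could call ranged from 0.0824 to 0.534 for H3K4me2 and from 0.0120 to 0.586 for H3K4me3.

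Mapped reads ranged from 5.12 to 47.9 M in the 48 libraries that hold RPKM coverage, and the 6 libraries of NALM6 replicate 1 hold another scaling that the sources used here do not state. For H3K4me2 in Raji every bryostatin library (15.6 to 18.8 M reads) was deeper than every untreated one (6.70 to 13.9 M). The library labelled Raji H3K27me3 untreated replicate 2 stood apart from its label. It had a peak at 99.5% of the 4361 starts that carried H3K4me3 in all 18 H3K4me3 libraries, against 0.344% to 15.6% in the other 17 H3K27me3 libraries. H3K27me3 results are therefore given with and without it. All 6 B lineage markers had an H3K4me3 start peak in 6 of 6 Raji libraries, and 4 of 6 did in NALM6 and in REH, where MS4A1 had none. None of the T cell or erythroid markers had one in any line, and of the myeloid markers only CSF1R did, in 1 REH library.

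The genes differed in which lines carried their marks. RGS19 and GNA13 carried H3K4me2 and H3K4me3 at the start in all 18 libraries of each mark, as did 17.8% and 21.8% of all genes. RGS1, RGS13 and GPR183 had start peaks of both marks called in Raji alone, in part at levels that few NALM6 and REH libraries could have called. RGS16, RGS2, ADORA2A and P2RY8 were marked in more than one line but at different levels or with one mark missing. RGS18, an RGS gene best known in megakaryocytes and platelets, had no peak of any mark at its start or within 20 kb of its body in any of the 54 libraries. Among all genes, 32.7% had no H3K4me2 start peak and 37.5% no H3K4me3 start peak in any of the 18 libraries.

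**Figure D1:**
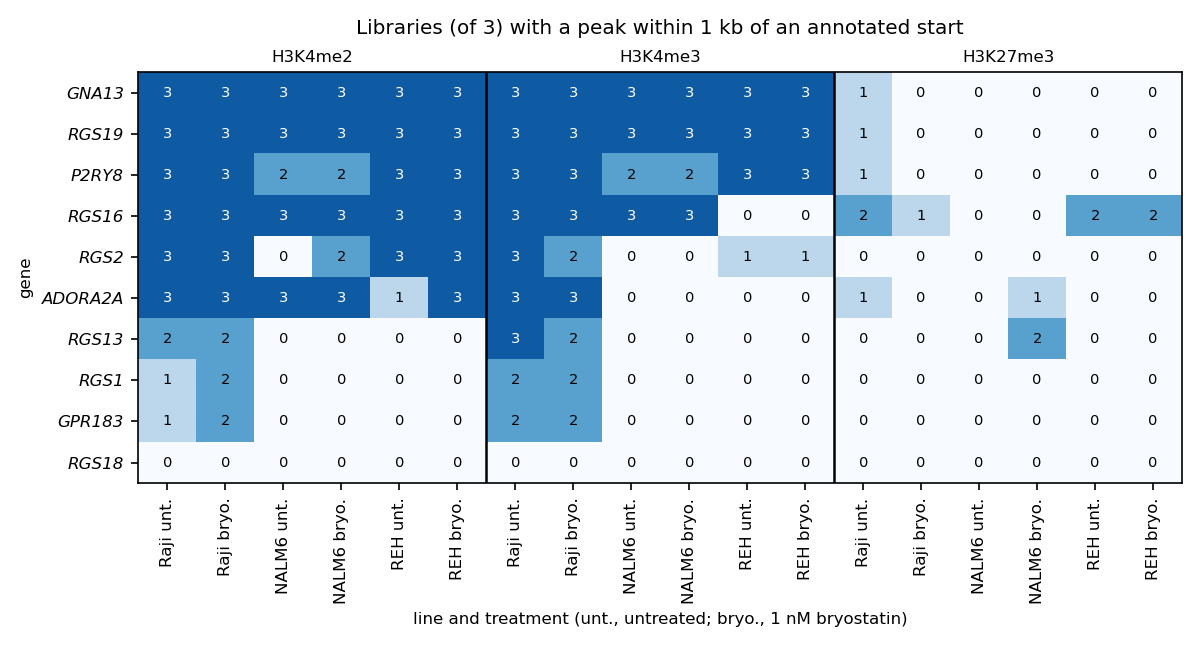
Number of libraries, of 3 per line and treatment, with a peak within 1 kb of a start of each gene (rows), for each of the 3 marks (darker blue is more libraries). RGS1, RGS13 and GPR183 are filled for H3K4me2 and H3K4me3 in Raji only, RGS18 is empty throughout, and RGS16 has H3K27me3 in 2 of 3 untreated and 2 of 3 bryostatin REH libraries.

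The stretches upstream of the starts differed in their content of CG. The 250 bases before the start are given for the 3 genes whose H3K4me2 and H3K4me3 start peaks were called in Raji alone and for RGS16 and RGS2, from the RefSeq table of GRCh38.p14, with every CG in capitals. They lie at chr1:192575523-192575772 (+) for RGS1, chr1:192635897-192636146 (+) for RGS13, chr13:99307400-99307649 (-) for GPR183, chr1:182604390-182604639 (-) for RGS16 and chr1:192808789-192809038 (+) for RGS2.
RGS1: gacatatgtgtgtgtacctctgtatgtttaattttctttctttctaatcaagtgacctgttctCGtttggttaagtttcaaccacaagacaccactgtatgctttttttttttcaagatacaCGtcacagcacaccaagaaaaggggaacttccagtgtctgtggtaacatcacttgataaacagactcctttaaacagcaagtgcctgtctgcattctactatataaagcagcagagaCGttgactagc
RGS13: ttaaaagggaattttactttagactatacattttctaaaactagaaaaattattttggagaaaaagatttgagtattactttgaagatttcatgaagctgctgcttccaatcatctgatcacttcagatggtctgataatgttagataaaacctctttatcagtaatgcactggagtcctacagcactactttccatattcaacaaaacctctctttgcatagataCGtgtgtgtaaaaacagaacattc
GPR183: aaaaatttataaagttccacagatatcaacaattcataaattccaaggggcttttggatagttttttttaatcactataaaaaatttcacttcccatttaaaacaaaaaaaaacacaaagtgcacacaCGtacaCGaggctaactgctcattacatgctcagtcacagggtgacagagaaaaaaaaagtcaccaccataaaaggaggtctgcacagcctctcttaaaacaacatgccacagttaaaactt
RGS16: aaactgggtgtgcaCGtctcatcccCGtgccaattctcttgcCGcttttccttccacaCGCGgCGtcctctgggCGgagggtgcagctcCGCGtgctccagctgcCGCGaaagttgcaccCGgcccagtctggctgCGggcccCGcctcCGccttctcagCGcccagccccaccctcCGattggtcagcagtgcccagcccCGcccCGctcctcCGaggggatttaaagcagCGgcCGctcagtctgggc
RGS2: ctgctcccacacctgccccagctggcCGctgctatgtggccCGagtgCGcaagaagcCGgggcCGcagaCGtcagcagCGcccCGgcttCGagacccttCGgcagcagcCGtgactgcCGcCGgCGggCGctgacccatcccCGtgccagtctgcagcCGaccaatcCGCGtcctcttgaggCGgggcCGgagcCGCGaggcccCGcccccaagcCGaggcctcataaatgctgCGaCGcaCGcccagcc

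The first 3 sequences are rich in A and T and hold 3, 1 and 2 CG, whereas RGS16 and RGS2 hold 22 and 28. Over the 300 bases that reach 50 bases into the gene, the ratio of observed to expected CG was 0.469 for RGS1, 0.235 for RGS13 and 0.420 for GPR183. It was 0.799 for RGS16, 0.888 for RGS2, and 0.889 and 0.966 at the first promoters of RGS19 and GNA13. RGS18, which no mark reached, had a ratio of 0.310. Start peaks were counted per gene over all its annotated starts, so that promoters of one gene share a count. That table holds 21547 promoters of protein-coding genes. Of those under 0.4, 62.3% belonged to a gene without an H3K4me3 start peak in any of the 18 libraries. The share was 42.0% from 0.4 to 0.6 and 16.9% at 0.6 or above. Among the members the number of marked libraries did not follow the ratio in every case. RGS2 had a high ratio and H3K4me3 in 7 of 18 libraries, whereas P2RY8 had ratios of 0.575 and 0.447 at its 2 promoters. Counted over both its starts, P2RY8 had H3K4me3 in 16. At its inner start, with the ratio of 0.447, H3K4me3 was called in all 6 Raji libraries. There it was also called in 1 untreated and 1 bryostatin REH library, and in no NALM6 library. The second promoters of RGS19 and GNA13 had ratios of 0.587 and 0.638. This is a description over genes and not a test.

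A search of the 12 promoters on both strands found TATAAA in RGS1 and GPR183, against 9.44% of all promoters. CCAAT was found in RGS2, RGS13, RGS16 and the second GNA13 promoter, and in 34.8% of all promoters. TGANTCA, the letters bound by AP-1, and TGACGTCA, those bound by CREB, were in none of the 12 and in 6.17% and 2.29% of all promoters. Both factors are known to act downstream of protein kinase signalling, but the absence of these letters from a 300-base window says nothing of their binding. ADORA2A was not matched.

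RGS1, which dampens chemokine receptor signalling in B cells, lies at chr1:192575763-192580024 on the plus strand. Its H3K4me2 start level in untreated Raji was 0.171, 0 and 0 in replicates 1 to 3, and with bryostatin 0.169, 0.238 and 0. Its H3K4me3 start level was 0.0487, 0.0918 and 0 in untreated Raji and 0.113, 0.119 and 0 with bryostatin. Marked and unmarked Raji libraries thus occurred in both treatment groups, and replicate 3 lacked both marks in both. No NALM6 or REH library had a peak of either mark over the gene or its flanks. The calling limits of the libraries bound that contrast. Only 1 of the 12 NALM6 and REH libraries could have called the lowest Raji H3K4me2 region level of 0.171, although all 12 could have called the highest, 1.01. For H3K4me3 4 of the 12 could have called the lowest Raji region level of 0.103.

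RGS13, an RGS gene of germinal centre B cells, lies 60.4 kb further along chromosome 1, at chr1:192636138-192660311, and has 4 annotated starts over 8393 bp. Over its body and flanks the H3K4me2 level in Raji was 1.73, 0.911 and 2.97 untreated and 3.73, 4.46 and 1.26 with bryostatin. All 6 libraries were marked and the groups overlapped, with means of 1.87 ± 1.04 and 3.15 ± 1.68 (SD, n = 3). Most of this signal lay upstream of the start. A region at chr1:192623851-192630220 and another at chr1:192630391-192636820 were called in all 6 Raji libraries and in no NALM6 or REH library. For the second of these, 10 of the 12 NALM6 and REH libraries could have called the lowest Raji level of 0.369, so that this contrast was within reach of most of them. At the starts themselves H3K4me3 was faint, at 0.0690, 0.0963 and 0.107 in untreated Raji and 0.0736, 0.0882 and 0 with bryostatin. Only 2 of the 12 NALM6 and REH libraries could have called the lowest Raji H3K4me3 region level of 0.0704, so that a difference in this mark at that level was not detectable.

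RGS1, RGS13 and RGS2 stand in a row on chromosome 1, and the stretch between RGS1 and RGS13 held further H3K4me2. A region at chr1:192607791-192610360, 33.3 kb from the RGS1 start and beyond the flanks of both genes, had levels of 0.332, 0 and 0 in untreated Raji and 0.440, 0.444 and 0.288 with bryostatin. It was also called in 1 bryostatin REH library, at 0.182, and in no NALM6 library. Another 2 smaller regions nearby were called in bryostatin Raji libraries alone, in 2 and in 1 of them. The bryostatin libraries were the deeper ones, so that treatment and depth moved together between the groups. Within the untreated group the region at 33.3 kb was called in replicate 1 (8.31 M reads) and not in the deeper replicate 3 (13.9 M). The part of depth was not tested.

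**Figure D2:**
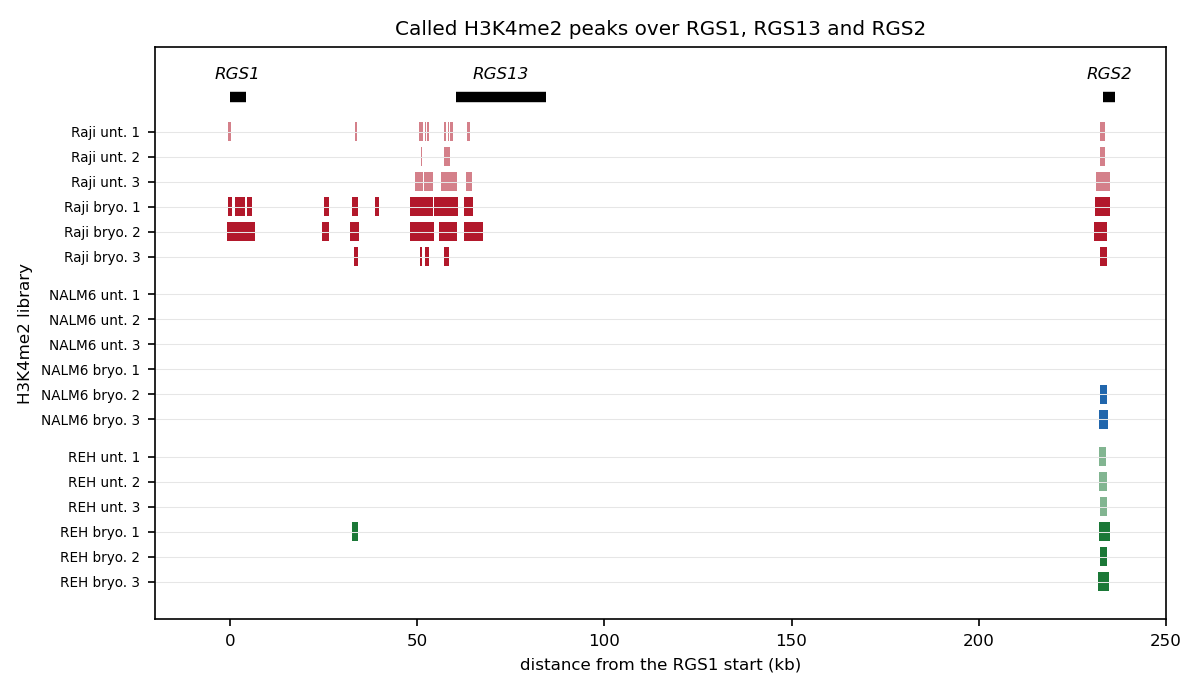
H3K4me2 peaks along the cluster of RGS1, RGS13 and RGS2 by library, as distance in kb from the RGS1 start, 1 row per library grouped by line and treatment, with the genes as black bars. The peaks within the 20 kb upstream of RGS13 are present in all 6 Raji rows and in no NALM6 or REH row. Further upstream, between RGS1 and RGS13, 1 REH row has 1 peak. The RGS2 peak is present in all Raji and REH rows.

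RGS2, which acts mainly on the Gq class of G alpha subunits, lies at chr1:192809039-192812275, 233 kb from RGS1, and differed from its neighbours in being marked in REH. Its H3K4me2 start level was 0.712, 0.530 and 0.421 in untreated Raji and 0.587, 0.480 and 0.456 in untreated REH. The ranges overlapped, and the log2 difference of Raji to REH in limma was 0.06 ± 0.20 (SE), with adjusted p = 0.855. Over the body, where the difference was 0.51, it passed the threshold (adjusted p = 0.0257). Untreated NALM6 had no RGS2 peak in any replicate. Of the 4 NALM6 libraries without a peak, 3 could have called the lowest Raji region level of 0.530. With bryostatin the NALM6 levels were 0, 0.349 and 0.356 (mean difference 0.235, exact two-sided permutation test, n = 3 against 3, p = 0.4). A start peak in no untreated and at least 2 bryostatin NALM6 libraries was seen at 5.89% of the genes without an untreated peak.

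H3K4me3 at RGS2 was low everywhere. It reached 0.111, 0.122 and 0.0827 in untreated Raji and 0.130, 0.132 and 0 with bryostatin, and was called in 1 untreated and 1 bryostatin REH library, at 0.181 and 0.206. No NALM6 library had it. Only 2 of the 10 NALM6 and REH libraries without the peak could have called the lowest Raji region level of 0.0893. A difference between the lines in this mark was thus not detectable with these calling limits.

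RGS16, a regulator of Gi and Gq signalling that is induced in activated lymphocytes, lies at chr1:182598623-182604389 on the minus strand and gave the member difference between lines that held under every setting tried. Its H3K4me2 start level was 0.784, 0.659 and 0.688 in untreated Raji, 0.509, 0.647 and 0.900 in untreated NALM6 and 0.299, 0.281 and 0.245 in untreated REH. REH lay below every library of both other lines, and Raji and NALM6 overlapped. In limma with Benjamini-Hochberg adjustment over all genes, the log2 difference was 1.33 ± 0.16 (SE) for Raji over REH (adjusted p = 1.1e-04) and 1.33 ± 0.23 for NALM6 over REH (adjusted p = 0.0193). Raji and NALM6 differed by 0.03 ± 0.23 (adjusted p = 0.962). The Raji difference passed the threshold in all 9 other settings and in all 6 fits that left out 1 library, with adjusted p from 1.5e-05 to 0.00103. The NALM6 call was lost without NALM6 replicate 3 or without any 1 of the 3 REH libraries (adjusted p 0.0537 to 0.114) and without centring of the libraries (log2 difference 0.02, adjusted p = 0.990).

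H3K4me3 went further. It was 0.263, 0.430 and 0.373 at the RGS16 start in untreated Raji and 0.688, 0.531 and 0.420 in untreated NALM6, and no REH library had a peak there, with or without bryostatin. All 6 REH libraries could have called the lowest Raji region level of 0.628. A start with H3K4me3 in none of the 6 REH libraries and in at least 5 of 6 of both other lines was found for 0.215% of all genes. Between Raji and NALM6 the ranges overlapped, with a log2 difference of -0.69 ± 0.28 (adjusted p = 0.173).

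REH instead carried H3K27me3 at the RGS16 start, in 4 of 6 libraries. With each library cut to the smallest peak number of its line and mark, only 1 of all 18 kept this peak. That number was 851 in Raji, 590 in NALM6 and 17295 in REH, so that it still differed between the lines. The called length was 1310, 0 and 990 bp in untreated REH and 0, 1300 and 1580 bp with bryostatin. In Raji it was 0, 1432 and 920 bp untreated and 0, 0 and 580 bp with bryostatin, where the 1432 bp belong to the library that stood apart. Without that library 2 of 5 Raji libraries had the peak, and no NALM6 library did. RGS16 in REH thus had H3K4me2 in 6 of 6, H3K4me3 in none and H3K27me3 in 4 of 6 libraries. This combination was shared by 0.574% of all genes and was lost with the cut peak numbers. H3K27me3 peak numbers ran from 590 to 102183 per library, so that no level was compared.

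Of the 3 H3K4me2 regions in the RGS16 flanks, 1 was called in every REH library. This region, at chr1:182613651-182618650, with its midpoint at -11.8 kb from the start, was called in all 18 libraries and reached 0.79 to 1.17 in REH. The region over the gene itself reached 0.31 to 0.59 in REH, against 0.87 to 2.35 in Raji and 1.09 to 2.54 in NALM6. A further region, at -18.1 kb (chr1:182620541-182624470), was called in all 6 Raji libraries and in no other. The third, at 15.3 kb past the start, was called in 1 untreated and 1 bryostatin REH library. It was also called in 2 bryostatin Raji libraries and in 1 bryostatin NALM6 library.

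RGS19, a regulator of Gi subunits also known as GAIP, lies at chr20:64073181-64079988 on the minus strand, and a start of the opioid-like receptor gene OPRL1 falls in its start window. The signals of the 2 genes cannot be told apart, and its values hold for the shared promoter. Its H3K4me2 start level was 2.34, 2.26 and 2.60 in untreated Raji, 1.19, 1.03 and 1.33 in untreated NALM6 and 2.36, 2.75 and 2.54 in untreated REH. NALM6 lay below both other lines without overlap. The log2 difference was -1.06 ± 0.19 for NALM6 against REH (adjusted p = 0.0195) and 0.97 ± 0.21 for Raji against NALM6 (adjusted p = 0.0239), while Raji and REH differed by -0.13 ± 0.11 (adjusted p = 0.395). The call against REH was lost without NALM6 replicate 2 or any 1 REH library (adjusted p 0.0531 to 0.153), and that against Raji without NALM6 replicate 2 or 3 or any 1 Raji library (adjusted p 0.0527 to 0.118). Over the body the differences shrank to -0.41 (adjusted p = 0.203) and 0.15 (adjusted p = 0.559), and with the maximum signal that against REH was -0.58 (adjusted p = 0.0923). With the mean signal per called base that against Raji was 0.77 (adjusted p = 0.0788). Without centring they were -2.37 and 2.11 (adjusted p = 0.675 and 0.791). The body window also holds starts of LKAAEAR1 and TCEA2, so that body values are not those of RGS19 alone. H3K4me3 at the same start was 2.86 in NALM6 replicate 1 and 0.959 and 1.01 in replicates 2 and 3, and no line difference in it passed the threshold with all libraries. Without NALM6 replicate 1 the Raji to NALM6 difference turned to 0.45 (adjusted p = 0.04998, just past the threshold). Without Raji replicate 1 the Raji to REH difference was 0.44 (adjusted p = 0.0275), whereas over the body it was -0.34 (adjusted p = 0.0402).

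Among the 3 receptors, ADORA2A had the widest range of H3K4me2 levels across the lines. It encodes an adenosine receptor that raises cAMP through Gs, and lies at chr22:24417879-24442357 on the plus strand with 12 annotated starts. A level is a sum over the start window, which covers 10711 bp for ADORA2A, 2001 bp for GPR183 and 4002 bp for P2RY8. The part of window length in the range was not tested. The H3K4me2 start level of ADORA2A was 3.35, 3.76 and 3.95 in untreated Raji, 1.95, 1.68 and 1.44 in untreated NALM6 and 0.0354, 0 and 0 in untreated REH. The 3 lines did not overlap, in the order Raji, NALM6, REH. The log2 difference of Raji over NALM6 in limma was 1.07 ± 0.20 (SE), with adjusted p = 0.0128. The call was lost without any 1 of the 3 Raji libraries (adjusted p 0.0664 to 0.0697), and the difference shrank to 0.12 when the maximum of the peaks was used in place of their sum (adjusted p = 0.778) and to 0.29 with the mean signal per called base (adjusted p = 0.653). Without centring it was 2.21 with adjusted p = 0.791. REH could not be fitted for want of peaks in every library, and its difference from either line has exact p = 0.1 (two-sided permutation test), the smallest that 3 against 3 allows.

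H3K4me3 at ADORA2A was present in all 6 Raji libraries, at 0.761, 0.926 and 0.778 untreated and 0.654, 1.03 and 0.890 with bryostatin. It was called in no NALM6 or REH library, all 12 of which could have called the lowest Raji region level of 1.05. NALM6 thus had H3K4me2 without H3K4me3 at this gene in 6 of 6 libraries, as did 0.3% of all genes. Most of the H3K4me2 in Raji lay in a broad region at chr22:24423121-24438710, with levels of 6.76 to 9.37. Another, at chr22:24397861-24403330, was called in 5 Raji libraries (0.798 to 1.95) and in 1 bryostatin REH library (0.403). The broad region reached 1.41 to 3.49 in NALM6. A region nearer the first start, at chr22:24416711-24421880, was called only in NALM6, in 3 of its 6 libraries.

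**Figure D3:**
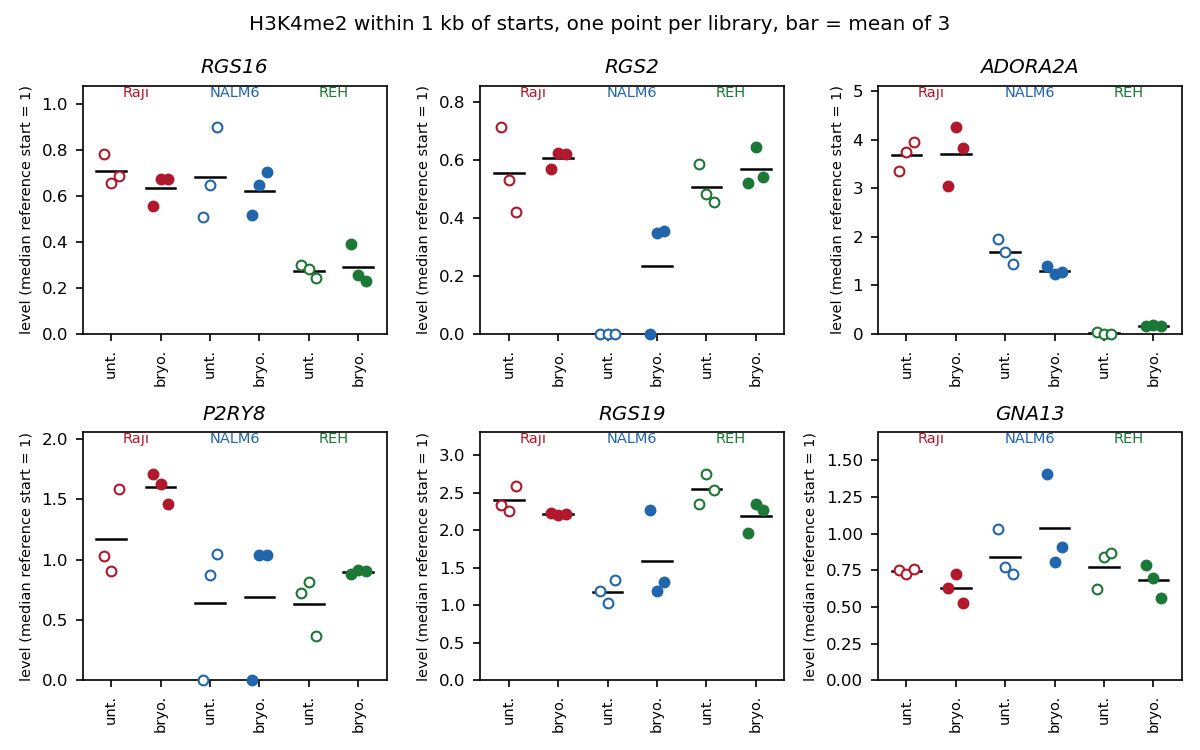
H3K4me2 start level of 6 genes in each library (open points untreated, filled points bryostatin) with the mean of 3 (bar), by line. A level of 0 means that no peak was called, and the axis differs between genes. ADORA2A H3K4me2 lies at 3.04 to 4.26 in Raji, 1.23 to 1.95 in NALM6 and 0 to 0.184 in REH.

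GPR183, the oxysterol receptor also known as EBI2 that guides B cells to the outer follicle, lies at chr13:99294539-99307399 on the minus strand within UBAC2, one of whose starts falls in its start window. The H3K4me2 level over the body was 0.359, 0 and 0 in untreated Raji and 1.55, 1.52 and 0 with bryostatin. H3K4me3 at the start was 0.0344, 0.0769 and 0 untreated and 0.0544, 0.0470 and 0 with bryostatin. As at RGS1, replicate 3 lacked both marks in both groups. No NALM6 or REH library had a peak of any of the 3 marks there. Only 1 of 12 could have called the lowest Raji H3K4me2 region level of 0.150, and 2 of 12 the lowest H3K4me3 region level of 0.0702. RGS1, RGS13 and GPR183 were the 3 members with an H3K4me2 start peak in at least 3 Raji libraries and none of the 12 others, as were 2.2% of all genes, and the same 3 met that rule for H3K4me3, which 1.85% of all genes did. Each library was also cut to the smallest peak number of its line and mark, which still differed between the lines. H3K4me2 was then left in 1 library for RGS1, 3 for RGS13 and 2 for GPR183, and H3K4me3 in 3, 3 and 0. Only RGS13 thus had at least 3 of both marks.

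P2RY8, the receptor that acts through GNA13, lies in the pseudoautosomal region at chrX:1462581-1537185 on the minus strand and has 2 annotated starts. Its H3K4me2 start level was 1.03, 0.904 and 1.58 in untreated Raji, 0, 0.876 and 1.04 in untreated NALM6 and 0.726, 0.813 and 0.365 in untreated REH. The 0 belongs to NALM6 replicate 1, whose scaling differs. Raji lay above REH, with a log2 difference of 0.88 ± 0.28 (adjusted p = 0.0317), and this call was lost without Raji replicate 1 or 3 or REH replicate 3 (adjusted p 0.0626 to 0.107), without centring (0.75, adjusted p = 0.0687) and where genes with a peak in at least 3 of 6 libraries entered (0.80, adjusted p = 0.103). H3K4me3 gave 0.540, 0.951 and 0.783 in untreated Raji against 0.599, 0.533 and 0.498 in REH and 0, 0.350 and 0.313 in NALM6. The Raji to REH comparison had a log2 difference of 0.44 ± 0.18 (adjusted p = 0.0866). That difference passed within 2 kb of the starts (adjusted p = 0.0244), over the body (0.65, adjusted p = 1.1e-04), where the window also holds the start of ASMTL, with quantile normalization (adjusted p = 0.0469) and without Raji replicate 1 (0.65, adjusted p = 0.00493). The region at the ASMTL start, chrX:1450061-1454840, alone had H3K4me3 levels of 1.50, 1.94 and 1.91 in untreated Raji and 0.947, 0.933 and 0.754 in untreated REH, so that the body difference is not that of P2RY8 alone.

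The lines differed in their H3K4me2 levels at the 2 P2RY8 starts. At the inner start, chrX:1491451-1497980, the H3K4me2 region reached 1.16 to 1.94 in Raji and 0.93 to 1.13 in REH but at most 0.48 in NALM6. At the outer start, chrX:1534251-1538830, it reached 1.08 to 2.00 in Raji, 0.58 to 1.02 in REH and 1.45 to 1.82 in NALM6 replicates 2 and 3. A region at -9.85 kb from the outer start, chrX:1545811-1548260, was called in 3 NALM6 and 5 REH libraries, at 0.338 to 0.449, and in no Raji library.

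GNA13, whose product couples receptors such as P2RY8 to RhoA, lies at chr17:65009289-65056740 on the minus strand and was marked evenly across the lines. H3K4me2 at its start was at 0.750, 0.726 and 0.761 in untreated Raji, 1.03, 0.771 and 0.727 in untreated NALM6 and 0.619, 0.837 and 0.870 in untreated REH. Its H3K4me3 start level was 1.52, 1.45 and 1.33 in untreated Raji, 2.03, 1.47 and 1.67 in untreated NALM6 and 1.45, 1.65 and 1.85 in untreated REH. The lines overlapped, and none of the 6 line differences passed the threshold (log2 -0.32 to 0.16, adjusted p 0.279 to 0.747). Its body nevertheless held 4 H3K4me2 regions that were called only in Raji, of 6 in all, at 0.101 to 0.644. Of these, 2 were called only in bryostatin replicates 1 and 2, and the levels overlap the smallest that NALM6 and REH libraries could call (0.147 to 0.534). No H3K27me3 lay at its start outside the Raji library that stood apart, and the same was true of RGS19 and P2RY8.

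Read against the whole table, 2 of the 5 members tested passed for Raji against REH in H3K4me2, where 32.8% of 8294 genes did, and 2 of 4 for Raji against NALM6, where 9.84% of 4504 did. For NALM6 against REH 2 of 3 passed, against 4.77% of 4994 genes. In H3K4me3 none of the 3, 2 and 3 members tested passed for Raji against REH, NALM6 against REH and Raji against NALM6, where limma called 30.1%, 2.9% and 10.0% of all genes. Other settings moved P2RY8 and RGS19 past the threshold, as given above, and RGS16 for Raji against NALM6 over the body (log2 difference -0.79, adjusted p = 0.0170). The genes tested had a start peak in all 6 libraries, so RGS1, RGS13, RGS18 and GPR183 entered no fit. RGS16 H3K4me3 and ADORA2A entered none against REH, and the counts cover only members with a peak in every library compared. By the ranges alone, Raji lay above REH in H3K4me2 without overlap for 3 of the 9 members with a start peak (20.6% of all such genes) and above NALM6 for 3 of 9 (24.3%). NALM6 lay above REH for 2 of 6 (5.67%) and below it for 2 of 6 (29.6%). In H3K4me3, Raji lay above REH for 3 of 9 members (RGS13, RGS16 and ADORA2A, against 23.3% of genes) and above NALM6 for 4 of 9 (RGS2, RGS13, ADORA2A and P2RY8, against 28.2%). NALM6 lay above REH for 1 of 5 (RGS16, against 9.52%) and below it for 1 of 5 (P2RY8, against 18.6%). The H3K4me3 counts take an uncalled peak as 0. For RGS13 and RGS2 most of the other lines' libraries could not have called the lowest Raji region level.

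**Figure D4:**
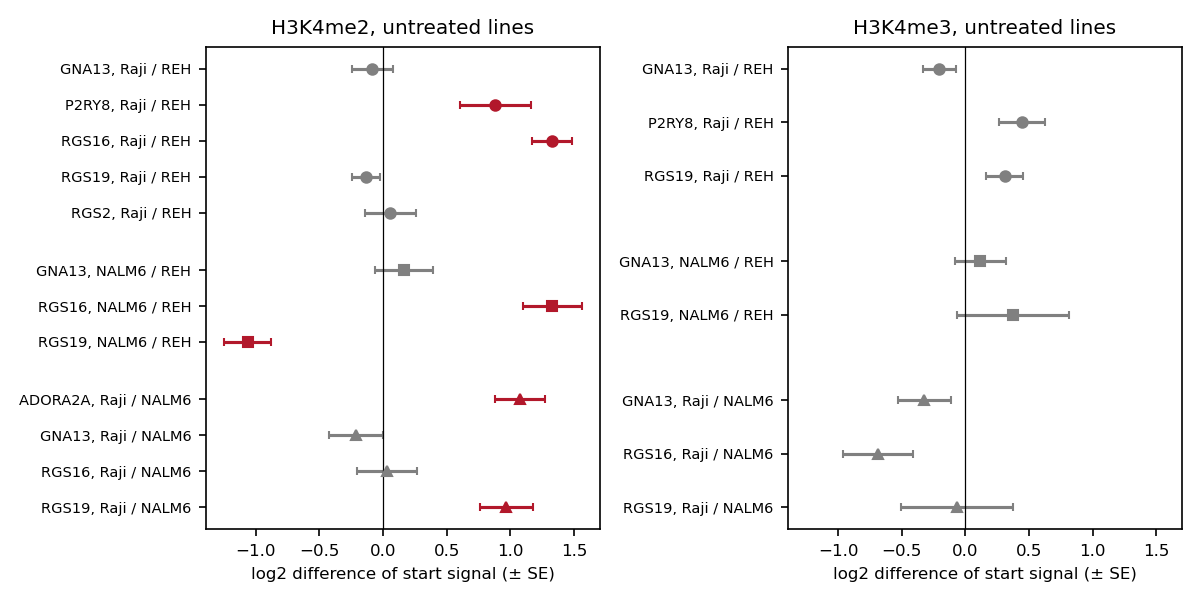
Log2 difference between untreated lines in the limma fit (point) with its standard error (bar), for each member with a start peak in all 6 libraries compared, for H3K4me2 and H3K4me3; red points have an adjusted p under 0.05 and grey points do not. RGS16 H3K4me2 lies at 1.33 for both Raji and NALM6 over REH, and GNA13 lies between -0.32 and 0.16 throughout.

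Bryostatin was compared by a test only in NALM6, since the members were listed with results of that contrast in REH and Raji known. In NALM6 none of the 4 members tested for H3K4me2 or the 3 tested for H3K4me3 passed. limma called 0.0% of 4119 and 0.0% of 4643 genes, with 55 and 18 genes at an unadjusted p under 0.05, so the members did as all genes did. ADORA2A H3K4me2 was 1.41, 1.23 and 1.27 with bryostatin, below every untreated library (log2 difference -0.37 ± 0.25, adjusted p = 1.00). Every bryostatin library lay below every untreated one at 2.29% of genes with a start peak in NALM6. Over the body, GNA13 H3K4me2 was 1.03, 0.990 and 0.727 untreated and 1.41, 1.14 and 1.24 with bryostatin, without overlap (exact permutation p = 0.1, the smallest possible), and such a rise was seen at 5.89% of genes. RGS19 body H3K4me3 was 3.03, 2.47 and 2.58 untreated and 2.41, 2.08 and 1.58 with bryostatin, lower without overlap (exact permutation p = 0.1), as 4.14% of genes were. RGS16 H3K4me3 was 0.688, 0.531 and 0.420 untreated and 0.623, 0.450 and 0.552 with bryostatin, and overlapped. RGS16 H3K4me2 was 0.517, 0.649 and 0.707 with bryostatin, within its untreated range. RGS19 H3K4me2 was 2.27 in bryostatin replicate 1 and 1.19 and 1.32 in the other two, so that its mean of 1.59 ± 0.592 (SD, n = 3) rests on 1 library.

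In REH, where the values are a description, ADORA2A gained small H3K4me2 peaks. Its start level was 0.0354, 0 and 0 untreated and 0.166, 0.184 and 0.167 with bryostatin, and its body level 0.303, 0 and 0 against 1.02, 0.567 and 0.618. The body window also holds a start of SPECC1L. Of the 1.02 in bryostatin replicate 1, 0.403 came from the region at chr22:24397861-24403330. The start levels are far below the 3.04 or more of any Raji library. The H3K4me2 libraries of REH had 18.2 to 22.8 M reads with bryostatin and 13.7 to 18.8 M untreated. The part of depth in these values was not tested. A start peak in at most 1 untreated and all 3 bryostatin libraries was found for 0.184% of the REH genes with at most 1 untreated peak. RGS2 body H3K4me2 was 0.629, 0.528 and 0.460 untreated and 0.717, 0.645 and 0.749 with bryostatin, a ratio of 1.31. RGS2 and ADORA2A were the 2 members whose body levels lay higher without overlap, where 6.85% of genes did. P2RY8 start H3K4me2 was 0.726, 0.813 and 0.365 untreated and 0.885, 0.914 and 0.904 with bryostatin, while RGS19 lay below its untreated range at the start. RGS19 body H3K4me3 was 4.18, 4.34 and 3.63 untreated and 3.04, 3.55 and 3.17 with bryostatin, also lower without overlap, as 3.41% of genes were. For H3K4me2 in all, 2 members with a start peak lay above and 1 below without overlap, where 5.4% and 4.56% of genes did. RGS16 H3K4me2 was 0.393, 0.255 and 0.229 with bryostatin and overlapped its untreated range, still below every Raji and NALM6 library. RGS1, RGS13 and GPR183 had no H3K4me2 or H3K4me3 peak at the start or within 20 kb of the body in any REH library of either group. The study's own list of changed peaks names these 3 genes and ADORA2A in REH. That list was not used here, and how it relates to the missing peaks was not examined.

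In Raji the largest ratios of bryostatin to untreated body H3K4me2 were 11.2 for RGS1 and 8.56 for GPR183, and both rest on groups in which missing peaks were counted as 0. With the maximum of the peaks in place of their sum these ratios were 1.68 and 1.47. In both genes replicate 3 had no peak in either group, so the groups overlapped. No member lay above its untreated range without overlap at the start or over the body in H3K4me2, where 6.68% and 8.67% of genes did, and RGS19 alone lay below at the start, as did 3.12% of genes. The bryostatin libraries were the deeper ones, and the part of depth in these values was not tested. ADORA2A H3K4me2 was 3.04, 4.26 and 3.83 with bryostatin and overlapped its untreated range. P2RY8 start H3K4me2 was 1.71, 1.63 and 1.46, against 1.03, 0.904 and 1.58 untreated, and RGS16 H3K4me3 was 0.507, 0.464 and 0.395, against 0.263, 0.430 and 0.373. Both overlapped, with the lowest bryostatin library inside the untreated range. GNA13 body H3K4me3 was 1.71, 1.82 and 1.80 untreated and 1.97, 1.86 and 1.83 with bryostatin, higher without overlap, as 4.13% of genes were.

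H3K27me3 in NALM6 was called over the RGS cluster in bryostatin libraries only, and the share of all genes with that pattern was not counted. The called length over the body and flanks was 0, 4170 and 790 bp for RGS1, 0, 6620 and 810 bp for RGS13 and 0, 3445 and 970 bp for RGS2, and no untreated library had any. At the start windows of the 3 genes only RGS13 was reached, over 1013 and 220 bp in bryostatin replicates 2 and 3. Around RGS19, H3K27me3 was called in replicates 2 and 3 of both groups, over 11630 and 13050 bp untreated and 12050 and 6660 bp with bryostatin, and never at its start in NALM6. The number of H3K27me3 peaks ranged from 590 to 78872 among the bryostatin and from 1444 to 21351 among the untreated NALM6 libraries. Over the genome, bryostatin replicates 2 and 3 had 158 and 39.8 Mb called, against 71.9 and 35.7 Mb in untreated replicates 2 and 3. The part of these spreads in the calls at the members was not tested. ADORA2A had an H3K27me3 start peak in 1 bryostatin NALM6 library (480 bp) and in the Raji library that stood apart (3606 bp).

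The other genes of the pathway were taken from lists chosen by role. Of 20 other receptors, 8 were tested for Raji against REH in H3K4me2, of which 4 were higher and 2 lower in Raji (median log2 difference 0.37), beside the 32.8% of all genes called in that comparison. CCR7, the chemokine receptor that draws B cells to the T cell zone, differed by 2.30 ± 0.17 (adjusted p = 3.2e-06), and LPAR5, a lysophosphatidic acid receptor, by 2.27 ± 0.12 (adjusted p = 4.0e-07). Of the 20, 5 genes, CXCR5, CCR7, P2RY10, GPR18 and ADORA2B, had H3K4me3 start peaks in at least 3 Raji libraries and in no other line, as did 1.85% of all genes. By the same rule for H3K4me2 there were 2, CXCR5 and ADORA2B, against 2.2% of all genes. The smallest H3K4me3 level a library could call was at most 0.140 in Raji but up to 0.586 in NALM6. Of 15 other RGS genes, 4 were tested, 1 was higher and 2 were lower in Raji, with RGS3 at 0.83 ± 0.12 (adjusted p = 3.2e-04) and RGS14 at -0.73 ± 0.15 (adjusted p = 0.00311). Of the 15, 8 had no H3K4me2 start peak in any library, beside 32.7% of all genes. RGS14 H3K4me3 went the other way in the same contrast, at 0.71 ± 0.17 (adjusted p = 0.00856).

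Of 12 other G alpha genes, 6 were tested for the same contrast, with 1 higher and 3 lower in Raji, beside 32.8% of all 8294 genes past the threshold (1322 higher and 1395 lower). GNA11, a Gq class subunit, differed by -0.66 ± 0.15 (adjusted p = 0.00576) and GNAZ by -0.51 ± 0.15 (adjusted p = 0.0208). Of 12 effectors, 8 were tested, with 2 higher and 1 lower, a share near that of all genes. RHOA, the GTPase downstream of GNA13, differed by 0.65 ± 0.15 (adjusted p = 0.00608) and ADCY7, an adenylyl cyclase, by -0.57 ± 0.13 (adjusted p = 0.00648). In the H3K4me2 fit of bryostatin in NALM6 none of the 8 receptors, 3 other RGS genes, 4 G alpha genes and 8 effectors tested passed.

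Over the body H3K4me2 levels of all 18 libraries, the genes whose pattern was most like that of ADORA2A were SPECC1L (Pearson r = 0.965) and the SPECC1L-ADORA2A readthrough (0.963), whose windows overlap its own, followed by ASTL (0.935). These are descriptions over libraries that share line and depth. For RGS1 the nearest were OR2T35, OR2T27 and KYNU (all at 1.00), and these values rest on the 3 Raji libraries with a peak, since the other 15 libraries were at 0.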

How the data were processed

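Cut&Tag reads were trimmed with Trim Galore, aligned to hg38 with Bowtie2 and turned into coverage by the authors, who called peaks in each library with SEACR. The deposited signal values are the sum and the maximum of that coverage over each peak, in RPKM for 48 of the 54 libraries. The 6 libraries of NALM6 replicate 1 were deposited with another scaling and with peak ends off the 10 bp bins. A comparison of groups with DESeq2 by the authors was not used, and IgG libraries were not used here. The series text names H3K27me2 where the labels give H3K27me3, and the labels were followed.

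Mapped reads were recovered from the RPKM step, with all peak maxima within 0.05 of a whole multiple. Genes and starts came from GENCODE 44 and promoters from RefSeq. The copy of P2RY8 on the Y chromosome was not counted. The log2 total start signal, with no pseudocount since every gene tested had a peak in all 6 libraries, was centred on each library's median gene. Groups were fitted in R 4.3.3 by limma 3.58.1, with moderated variances that follow the mean signal. The p-values were adjusted over all genes by Benjamini and Hochberg's method, with a threshold of 0.05. The method was tested on simulated data. For a single level the 2 groups were set against each other in an exact permutation test, two-sided. Tables were made with pandas 2.3.3 and figures with matplotlib 3.10.9.

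The members and lists were chosen with earlier results of these data known. All members were named. From each list at most 2 genes were named for the largest H3K4me2 log2 difference past the threshold between Raji and REH. The receptors with H3K4me3 start peaks in Raji alone were named as well. In NALM6, untreated and bryostatin libraries of one number deviated together (correlations 0.31 to 0.44 for H3K4me2 and 0.49 to 0.68 for H3K4me3). Unlike numbers reached 0.42 and 0.58, and the paired fit with the replicate block also called 0 genes. Alternatives were other windows, signal summaries, scalings, filters and the loss of each library.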

Additional observations from a re-analysis of the deposited data

Results flagged for a closer look

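ADORA2A H3K4me2 start levels with bryostatin lay on opposite sides of the untreated ones in 2 lines. The mean differed by -0.389 in NALM6, where every bryostatin library lay below every untreated one, as at 2.29% of genes, and by 0.160 in REH, where every bryostatin library lay above, as at 5.4% of genes. The NALM6 difference did not pass in limma (log2 -0.37 ± 0.25, adjusted p = 1.00). The difference between the lines was not tested, and the REH values start from 0 in 2 of the 3 untreated libraries.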

How the results depend on the processing

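The RGS16 difference between Raji and REH in H3K4me2 was past the threshold under every alternative and without any 1 library. Over all settings, 318 of the members' log2 differences kept direction and side of the threshold, 35 lost it, 7 gained it and 52 turned sign. None that turned had passed the threshold in the fit reported. Of the 52, 17 came from leaving out 1 library, and 2 were past the threshold after turning, as given below. The cause was not tested.

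With the gene body and 20 kb flanks in place of the start, GNA13 was at 0.19 (Raji to NALM6) and 0.44 (Raji to REH) in H3K4me2, RGS16 at -0.37 (Raji to NALM6, H3K4me2) and -0.25 (bryostatin in NALM6, H3K4me3), and RGS19 at -0.26 (bryostatin in NALM6, H3K4me2) and, in H3K4me3, -0.45 (NALM6 to REH), 0.089 (Raji to NALM6) and -0.34 (Raji to REH, past the threshold). With 2 kb around starts, H3K4me3 gave -0.096 (RGS16, bryostatin in NALM6) and 0.0085 (RGS19, Raji to NALM6). With the maximum signal, H3K4me3 differences were -0.16 (GNA13) and -0.19 (RGS19) for NALM6 to REH, 0.17 (GNA13) and 0.48 (RGS19) for Raji to NALM6, and 0.016 (GNA13) and -0.097 (P2RY8) for Raji to REH. In H3K4me2 they were 0.011 (GNA13) and 0.21 (RGS19) for Raji to REH and -0.074 (RGS16) for Raji to NALM6. The mean signal gave 0.27 (RGS19, Raji to NALM6, H3K4me3), -0.10 (RGS16, Raji to NALM6, H3K4me2) and -0.025 (GNA13, bryostatin in NALM6, H3K4me3). Quantile normalization gave -0.098 (GNA13, NALM6 to REH), -0.048 (RGS16, bryostatin in NALM6) and 0.20 (RGS19, Raji to NALM6) in H3K4me3, and -0.043 (RGS16, Raji to NALM6) and 0.034 (RGS19, Raji to REH) in H3K4me2. Without centring, NALM6 to REH differences turned to -1.14 (GNA13, H3K4me2), -1.20 (GNA13, H3K4me3) and -0.94 (RGS19, H3K4me3), and Raji to NALM6 differences to 0.92 (GNA13, H3K4me2), 0.72 (GNA13, H3K4me3), 0.36 (RGS16, H3K4me3) and 0.98 (RGS19, H3K4me3). RGS2 H3K4me2 (Raji to REH) was then -0.074.

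With 1 library left out, RGS19 H3K4me3 ranged from -0.16 (without NALM6 replicate 1) to 0.67 for NALM6 to REH, from -0.36 to 0.45 (without NALM6 replicate 1, past the threshold) for Raji to NALM6 and from -0.77 to 0.19 for bryostatin in NALM6. GNA13 ranged from -0.11 to 0.21 (bryostatin in NALM6, H3K4me3), from -0.023 to 0.25 (NALM6 to REH, H3K4me3) and from -0.25 to 0.017 (Raji to REH, H3K4me2). RGS16 ranged from -0.29 to 0.12 and from -0.17 to 0.20 (bryostatin in NALM6, H3K4me2 and H3K4me3) and from -0.19 to 0.24 (Raji to NALM6, H3K4me2), and RGS2 H3K4me2 from -0.14 to 0.26 (Raji to REH).

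Counts of all genes past the threshold moved more. A start peak in at least 3 of 6 libraries gave 4496 (Raji to REH), 2084 (NALM6 to REH) and 1838 (Raji to NALM6) in H3K4me2, and 683 (NALM6 to REH) and 1709 (Raji to NALM6) in H3K4me3, where more genes enter. The body gave 5419, 960 and 1760 in H3K4me2 and 5048, 596 and 1637 in H3K4me3, in the order Raji to REH, NALM6 to REH and Raji to NALM6. With 2 kb around starts there were 373 and 318 (NALM6 to REH) and 677 and 989 (Raji to NALM6) for H3K4me2 and H3K4me3. The mean signal gave 191 (Raji to NALM6, H3K4me2), 1549 (Raji to REH, H3K4me3) and 54 (NALM6 to REH, H3K4me3), and quantile normalization 369 (NALM6 to REH, H3K4me3). Without centring there were 0 calls in all 4 comparisons with NALM6, where 24, 11, 17 and 15 genes had an unadjusted p under 0.05 and the median gene shifted by -1.31 and -1.29 (NALM6 to REH) and by 1.15 and 1.01 (Raji to NALM6). For Raji to REH the shift was -0.12 and -0.29, with 721 higher and 1638 lower in H3K4me2 against 1322 and 1395 as reported, and 1383 calls in H3K4me3, of which 150 were higher and 1233 lower, against 1039 and 1321.

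In the line comparisons same-numbered libraries did not deviate together. The replicate block gave 131 (NALM6 to REH) in H3K4me2, and 22 (NALM6 to REH) and 340 (Raji to NALM6) in H3K4me3, and with it P2RY8, RGS16 in NALM6 and both RGS19 calls had adjusted p from 0.0504 to 0.0671. Leaving out 1 library, counts ranged from 17 to 1195 and from 108 to 1291 for H3K4me2 (NALM6 to REH and Raji to NALM6), and from 0 to 1684 and from 240 to 2517 for H3K4me3, with each highest count reached without NALM6 replicate 1. Bryostatin in NALM6 gave 0 to 2 genes in H3K4me2. Each library was also cut to the smallest peak number of its line and mark. H3K4me3 start peaks were then left in 0 of 18 libraries for GPR183, 1 for RGS2 and 3 for RGS13. An H3K4me2 peak was left in 1 for RGS1, and an H3K27me3 peak in 1 for RGS16. Calling limits bear most on the members with low levels.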
